A study of Mus musculus with 6 samples.

Results

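The 42 genes described here encode the enzymes and readers that open, close and mark chromatin in mouse cells: SWI/SNF, ISWI, CHD and INO80 family remodellers, histone acetyltransferases, histone deacetylases with the co-repressor Ncor1, and bromodomain readers. They were taken by exact symbol from the 21956 genes of the count table and all 42 were found and had enough counts to be tested. The study compared RNA from mouse material labelled lung tissue in 2 groups of 3 libraries, Aalter and VE. Its title speaks of airway allergy, of ferroptosis (iron-dependent cell death) in type 2 innate lymphoid cells under alpha tocopherol, which belongs to the vitamin E family, and of the kinase LKB1. The labels do not spell out either group name, and they give no genotype, strain, age, agent, dose or time for either group. Whether each library is a different animal is not said; p-values therefore reflect only how far these samples vary, which may be technical.

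Remodellers use ATP to slide, evict or exchange nucleosomes, and so set which promoters and enhancers the transcription machinery can reach. Acetyltransferases mark histone tails at active sites, bromodomain proteins bind these marks, and deacetylases remove them. In leukocytes these enzymes take part in lineage choice and in the switching on of inflammatory genes. Class IIa deacetylases are also known substrates of SIK kinases, which LKB1 activates.

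Library totals ran from 11617074 to 16205053 estimated counts, and mitochondrial genes took 5.05% to 6.07% of them. In the labelled tissue, markers of lung epithelium were low beside markers of leukocytes. The 10 markers of alveolar and airway epithelium summed to 221 to 451 CPM per library, the highest of them being the club cell gene Scgb1a1 at 88.3 to 334 CPM, and the alveolar genes Sftpc and Ager lay at 12.6 to 18.3 and 1.92 to 6.36 CPM. The 3 pan-leukocyte markers Ptprc, Coro1a and Laptm5 summed to 2781 to 2917 CPM, and the 10 neutrophil markers to 25724 to 44454 CPM. The library Aalter-1 stood apart from Aalter-2 and Aalter-3: on the first principal component over all genes it scored -2.34, against 61.4 and 56.02 for them and -40.2 to -36.01 for the VE libraries. Counts of calls among the 42 genes and their partner genes are given with and without it, while counts by complex and by marker list are given with it.

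Most of the chromatin genes that moved were lower in VE. By edgeR's quasi-likelihood test 25 of the 42 fell and 0 rose, and over all 12551 genes tested 19.5% fell and 12.8% rose. At an unadjusted p under 0.05 there was 1 gene higher, the acetyltransferase gene Kat2b, and 26 lower, beside 21.2% and 25% of all tested genes. DESeq2 and limma-voom each called 25 lower and Kat2b higher, beside 20.3% lower and 15.6% higher among all genes by DESeq2 and 17.8% and 14.9% by limma-voom. In bulk samples fewer cells of a type and less RNA per cell cannot be told apart, and leukocyte and airway epithelial markers moved between the groups, as given further on. The median log2 fold change of the 42 genes was -0.54, beside 0.02 for all tested genes. In 12 genes the level in VE was below that in Aalter by 1 or more on the log2 scale. The share of all tested genes at that cut was not counted, so this number has no background beside it. Without Aalter-1, 28 fell and 2 rose, beside 28.5% and 27.8% of all tested genes, and all 25 calls remained; those that rose were Kat2b and Chd9.

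The 42 genes together made up 0.381%, 0.513% and 0.476% of the counts of Aalter-1 to Aalter-3 and 0.258%, 0.258% and 0.26% of those of VE-1 to VE-3. The VE libraries were close to each other and all below the Aalter libraries. The ratio of the highest to the lowest library of a group had a median over the 42 genes of 1.12 within VE and of 1.33 within Aalter, and 33 genes had the wider range in Aalter. Of the 25 genes that fell, 22 had their lowest Aalter value in Aalter-1. The exceptions were Chd8, Ep300 and Brd3. Neither the ranges nor the place of Aalter-1 were counted over all tested genes, and Aalter-1 stood apart over all genes as well. These values are therefore not particular to the 42 genes as far as is known. The groups did not overlap in 29 genes that were lower in VE and in 1 that was higher, beside 26.3% and 25.6% of all tested genes.

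**Figure D1:**
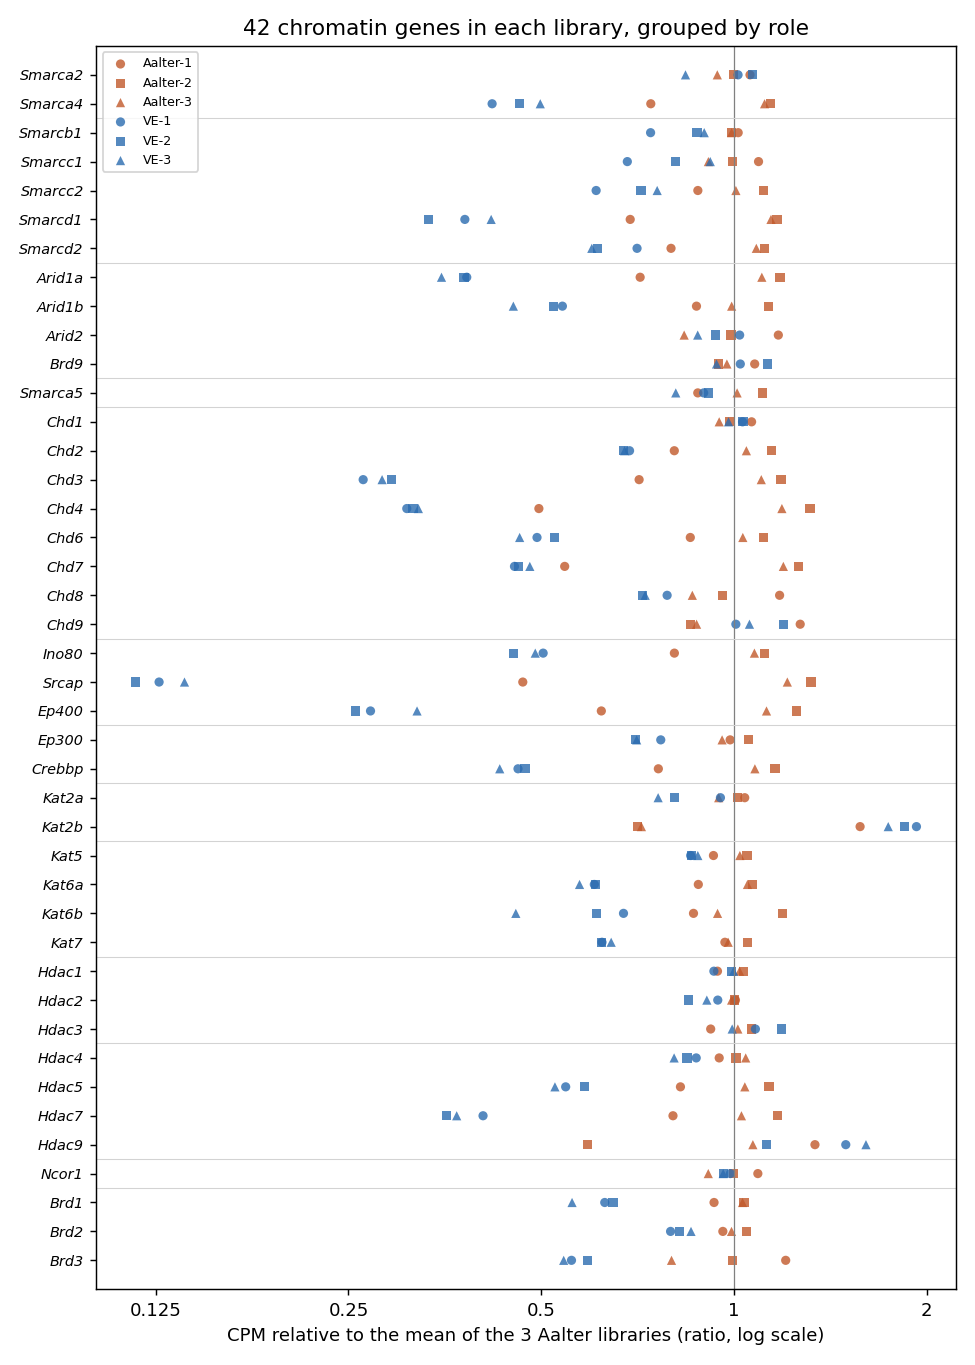
CPM of each of the 42 genes in each library, divided by the mean of the 3 Aalter libraries (horizontal log scale), with genes grouped by role. Srcap, Chd3, Ep400 and Chd4 lie farthest to the left in VE, Aalter-1 often lies between the other Aalter libraries and VE, and Kat2b is the gene whose VE values lie to the right of all Aalter values.

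The starts of 5 genes are shown because they hold the deepest fall (Srcap), the highest level in Aalter (Chd4), a pair of alternative ATPases (Smarca4 and Smarca2) and the gene with the highest fold change (Kat2b). The sequences are RefSeq promoters on GRCm38.p6, 250 bases before to 50 after a listed transcript start, all on the plus strand, at chr7:127511733-127512032 (Srcap), chr6:125095731-125096030 (Chd4), chr9:21615919-21616218 (Smarca4), chr19:26604910-26605209 (Smarca2) and chr17:53566721-53567020 (Kat2b). The listed starts of Smarca2 and Kat2b lie 110 bases from the gene start in GENCODE vM21. Capitals mark the GC box GGGCGG, the ETS core CCGGAAG and the CCAAT box, each read on both strands; no matches of different motifs overlapped.
Srcap: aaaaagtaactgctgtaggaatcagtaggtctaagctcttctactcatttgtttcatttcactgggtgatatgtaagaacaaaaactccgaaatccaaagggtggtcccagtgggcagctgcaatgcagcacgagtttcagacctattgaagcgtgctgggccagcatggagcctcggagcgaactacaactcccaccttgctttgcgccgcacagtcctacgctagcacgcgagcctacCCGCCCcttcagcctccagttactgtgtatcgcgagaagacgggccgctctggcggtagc
Chd4: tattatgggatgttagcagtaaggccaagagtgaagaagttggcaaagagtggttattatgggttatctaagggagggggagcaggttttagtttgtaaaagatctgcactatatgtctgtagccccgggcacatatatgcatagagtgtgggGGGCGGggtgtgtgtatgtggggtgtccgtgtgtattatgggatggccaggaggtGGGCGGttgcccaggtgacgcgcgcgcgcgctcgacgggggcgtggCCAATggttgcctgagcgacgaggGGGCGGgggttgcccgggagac
Smarca4: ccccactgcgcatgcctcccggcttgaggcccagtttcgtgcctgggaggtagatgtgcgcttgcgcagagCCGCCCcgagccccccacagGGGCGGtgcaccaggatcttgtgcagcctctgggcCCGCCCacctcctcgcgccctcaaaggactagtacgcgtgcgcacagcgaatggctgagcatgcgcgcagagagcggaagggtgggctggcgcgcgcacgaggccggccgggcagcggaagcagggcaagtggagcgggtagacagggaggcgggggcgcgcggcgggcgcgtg
Smarca2: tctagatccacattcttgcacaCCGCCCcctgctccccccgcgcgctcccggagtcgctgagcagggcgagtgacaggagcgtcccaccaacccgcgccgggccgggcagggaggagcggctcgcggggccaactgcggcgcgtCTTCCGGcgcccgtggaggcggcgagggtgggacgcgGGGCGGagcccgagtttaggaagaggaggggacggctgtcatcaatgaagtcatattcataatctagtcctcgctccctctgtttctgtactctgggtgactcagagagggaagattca
Kat2b: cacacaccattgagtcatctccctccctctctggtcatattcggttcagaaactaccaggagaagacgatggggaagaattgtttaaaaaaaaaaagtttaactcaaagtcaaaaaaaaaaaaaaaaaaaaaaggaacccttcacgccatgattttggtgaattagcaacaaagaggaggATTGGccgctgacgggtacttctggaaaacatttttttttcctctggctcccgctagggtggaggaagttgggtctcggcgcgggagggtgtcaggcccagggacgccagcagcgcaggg

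Promoters of 34 of the 42 genes were matched, each at the listed start nearest to the gene start in GENCODE vM21. The GC box stood in 18 of 21 promoters of genes that fell and in 9 of 13 of genes that did not pass, beside 35.9% of 27025 promoters, taken as the first listed start per gene. The ETS core stood in 3 of 21 and 5 of 13, beside 9.12% of all promoters, and the CCAAT box in 6 of 21 and 3 of 13, beside 37.9%. CpG pairs were frequent, with a median of 32 in promoters of genes that fell and 29 in those that did not pass, against 7 over all promoters. These matches describe the sequence and were not tested. The 27025 promoters were picked by a different rule and were not limited to genes tested here.

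In the INO80 family all 3 genes fell, beside 19.5% of all tested genes. Srcap encodes the ATPase that exchanges histone H2A for the variant H2A.Z at promoters. Levels are in CPM, counts scaled to library size, and are listed here and below in the order of library numbers. Srcap stood at 77.8, 219 and 202 for Aalter against 21.05, 19.3 and 23.1 for VE. Every VE library was below every Aalter library, and Aalter-1 lay between. The log2 fold change of Srcap was -2.97 ± 0.40 (SE, adjusted p = 0.00796), a level 7.85-fold higher in Aalter. Srcap (ENSMUSG00000053877) lies on chromosome 7 from 127511983 to 127561219. The annotated gene Gm42715 shares 61.7% of its exonic bases on the same strand, so its counts could be split; Gm42715 was at -0.47 on the log2 scale and did not pass (adjusted p = 0.0634).

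Ep400, an ATPase related to Srcap and a scaffold of the TIP60 acetyltransferase complex, stood at 92.9, 188 and 168 CPM for Aalter against 40.5, 38.3 and 47.9 CPM for VE. Its log2 fold change was -1.82 ± 0.26 (adjusted p = 0.00709). The groups were apart, with Aalter-1 again the lowest of its group. Ino80, the ATPase of the complex that spaces nucleosomes and removes H2A.Z, fell from 50.3 ± 8.45 to 24.2 ± 1.33 CPM (SD, n = 3), a log2 fold change of -1.05 ± 0.14 (edgeR adjusted p = 0.00585). By library, Ino80 was at 40.6, 56.1 and 54.2 CPM for Aalter against 25.3, 22.8 and 24.6 CPM for VE. The groups were apart here as well. The calls of all 3 genes were lost without VE-2 (adjusted p from 0.0514 to 0.0559), a fit in which 1.36% of all tested genes fell.

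Most genes of the complexes around these ATPases did not pass, beside 19.5% of all tested genes that fell and 12.8% that rose. Of 8 genes of the SRCAP complex Srcap fell, the zinc finger subunit gene Znhit1 rose (0.45 ± 0.10, adjusted p = 0.0189) and 6 did not pass, among them the shared ATPase genes Ruvbl1 (-0.04 ± 0.10, adjusted p = 0.782) and Ruvbl2 (-0.01 ± 0.13, adjusted p = 0.942), named after their values were seen. In the TIP60-EP400 complex 3 of 17 fell and 14 did not pass. Besides Ep400 these were Trrap, a very large scaffold protein gene (-1.92 ± 0.26, adjusted p = 0.00649), and Brd8, a bromodomain subunit gene (-0.28 ± 0.08, adjusted p = 0.0374), both named after their values were seen. Of 13 INO80 complex genes 4 fell and 1 rose: Nfrkb, a DNA-binding subunit gene, fell by 1.45 ± 0.14 (adjusted p = 0.00378) and Ino80d by 0.90 ± 0.12 (adjusted p = 0.00576), while the deubiquitinase gene Uchl5 rose by 0.43 ± 0.13 (adjusted p = 0.0411). The rises of Znhit1 and Uchl5 passed in 1 of the 6 fits without a library, that without Aalter-1. With GC content and length trends removed, Uchl5 (0.07, adjusted p = 0.631) and Brd8 (-0.22, adjusted p = 0.108) did not pass. In that fit Znhit1 (0.74, adjusted p = 0.0179), Trrap, Nfrkb and Ino80d passed.

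CHD remodellers pair a double chromodomain with an ATPase. Of the 8 genes 6 fell, beside 19.5% of all tested genes, and Chd1 and Chd9 did not pass. Chd3 and Chd4 encode alternative ATPases of NuRD, a complex that couples remodelling to deacetylation. Chd4 stood at 289, 767 and 693 CPM for Aalter against 179.8, 184 and 187 CPM for VE. Chd3 stood at 66.05, 110.03 and 102 CPM for Aalter against 24.5, 27.1 and 26.2 CPM for VE. In both genes the VE libraries were close together and below all Aalter libraries, and in Chd4 Aalter-1 lay nearer to VE than to the other Aalter libraries.

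Chd3 had a log2 fold change of -1.84 ± 0.19 (adjusted p = 0.00393) and passed in all 16 alternative fits. Chd4 fell by 1.67 ± 0.34 (adjusted p = 0.0161), and of the 6 leave-one-out fits its call held when Aalter-1 was left out and was lost in the other 5 (adjusted p up to 0.0781). Chd7, whose human counterpart is mutated in CHARGE syndrome, stood at 199, 461 and 437 CPM for Aalter against 166, 169 and 176 CPM for VE. Its fall of 1.10 ± 0.29 (adjusted p = 0.0306) became 1.40 without Aalter-1 and did not pass in the other 5 such fits (adjusted p up to 0.116). Aalter-1 was thus closer to VE than to its own group in this gene too.

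Chd6 stood at 58.02, 75.5 and 70.1 CPM for Aalter against 33.4, 35.6 and 31.4 CPM for VE, with the groups apart. It fell by 1.02 ± 0.12 (adjusted p = 0.00457) and passed in all 16 alternative fits. Chd2, a remodeller that incorporates histone H3.3, went from 357 ± 62.3 to 242 ± 2.86 CPM (-0.56 ± 0.14, adjusted p = 0.0232), with 18.4% of its exonic bases shared with 1810026B05Rik on the same strand. Its libraries were at 288, 409.6 and 374 CPM for Aalter against 245, 240.1 and 241 CPM for VE, and the VE values were all but level. Chd8, a regulator of beta-catenin signalling, stood at 90.4, 73.6 and 66.1 CPM for Aalter against 60.3, 55.2 and 55.8 CPM for VE, with its highest value in Aalter-1, and fell by 0.43 ± 0.13 (adjusted p = 0.0403). Chd1, which binds methylated histone H3 and accompanies RNA polymerase II, was at 216 ± 13.0 CPM for Aalter against 219 ± 6.42 CPM in VE (0.02 ± 0.09, adjusted p = 0.868). Chd9 was at 0.12 ± 0.18 (adjusted p = 0.626), and its groups overlapped, as did those of Chd1. Without Aalter-1 Chd9 was at 0.33 and passed (adjusted p = 0.022).

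Of 14 NuRD genes, 7 fell, 1 rose and 5 did not pass, with 1 not tested. Of all tested genes 19.5% fell and 12.8% rose. The zinc finger subunit gene Gatad2a (-1.05 ± 0.17, adjusted p = 0.00865) and the scaffold gene Mta2 (-0.83 ± 0.21, adjusted p = 0.0253) fell with Chd3 and Chd4, both named after their values were seen. The methyl-CpG binder gene Mbd2 rose by 0.39 ± 0.11 (adjusted p = 0.0348), a call that held without Aalter-1 and in no other leave-one-out fit. The deacetylase genes of the complex, Hdac1 and Hdac2, did not pass, as given below.

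Within SWI/SNF, Smarca4 and Smarca2 encode ATPases (BRG1 and BRM) that exclude each other from a complex. Smarca4 stood at 58.1, 89.5 and 87.5 CPM for Aalter against 32.9, 36.2 and 39.07 CPM for VE. Smarca2 stood at 45.7, 43.06 and 40.7 CPM for Aalter against 43.8, 46.1 and 36.3 CPM for VE. The groups were apart for Smarca4 and overlapped for Smarca2. Smarca4 fell by 1.12 ± 0.17 (adjusted p = 0.00842), and its call was lost without VE-1 or VE-2 (adjusted p up to 0.0606). Smarca2 was at -0.04 ± 0.11 (adjusted p = 0.825).

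Arid1a and Arid1b encode alternative DNA-binding subunits of the canonical BAF complex. Arid1a stood at 74.9, 124 and 116 CPM for Aalter against 40.2, 39.8 and 36.7 CPM for VE, and fell by 1.43 ± 0.19 (adjusted p = 0.00574). Arid1b fell from 49.6 ± 6.44 to 25.1 ± 2.30 CPM (SD, n = 3), by 0.98 ± 0.13 on the log2 scale (edgeR adjusted p = 0.00559). By library, Arid1b was at 43.4, 56.2 and 49.2 CPM for Aalter against 26.8, 25.95 and 22.4 CPM for VE. Neither gene's groups overlapped. Arid2, which defines the PBAF form, was at -0.08 ± 0.14 (adjusted p = 0.674), and Pbrm1, the other defining subunit of PBAF, was at 0.21 ± 0.14 (adjusted p = 0.277). Brd9, which defines the noncanonical form, was at 0.04 ± 0.11 (adjusted p = 0.789), while Bicra, its partner in that form, fell by 1.18 ± 0.14 (adjusted p = 0.00507).

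Core subunits fell less or did not pass, apart from Smarcd1. Smarcd1 and Smarcd2 encode alternative BAF60 subunits, and Smarcd2 is needed for granule formation in neutrophils. Smarcd1 stood at 15.6, 26.4 and 25.8 CPM for Aalter against 8.59, 7.53 and 9.44 CPM for VE, with the groups apart, and fell by 1.40 ± 0.22 (adjusted p = 0.00858). Smarcd2 fell by 0.64 ± 0.15 (adjusted p = 0.0188) and the scaffold gene Smarcc2 by 0.52 ± 0.13 (adjusted p = 0.0221), both calls being lost in 5 of 6 fits without a library. Smarcd2 was at 57.6, 80.7 and 78.3 CPM for Aalter against 50.97, 44.2 and 43.3 CPM for VE. Smarcc2 was at 44.3, 56.1 and 50.8 CPM for Aalter against 30.7, 36.1 and 38.3 CPM for VE. In both, Aalter-1 lay nearest to VE and the groups did not overlap. Smarcc1, the paralogue of Smarcc2, was at -0.31 ± 0.13 (adjusted p = 0.11) and Smarcb1, a tumour suppressor gene present in BAF and PBAF, at -0.25 ± 0.12 (adjusted p = 0.133). Of 28 SWI/SNF genes measured 9 fell, beside 19.5% of all tested genes, 15 did not pass and 4 had too few counts to test.

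Smarca5, the ATPase of ISWI complexes that space nucleosomes evenly, was at 265 ± 30.8 CPM for Aalter against 231 ± 14.4 CPM in VE, with overlapping groups (-0.19 ± 0.11, adjusted p = 0.22). Its libraries were at 233, 294 and 268 CPM for Aalter against 238, 242 and 215 CPM for VE. It passed without Aalter-1 (-0.28, adjusted p = 0.00625). Its partner gene Bptf, the large reader subunit of the NURF form, fell by 0.84 ± 0.09 (adjusted p = 0.00418).

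**Figure D2:**
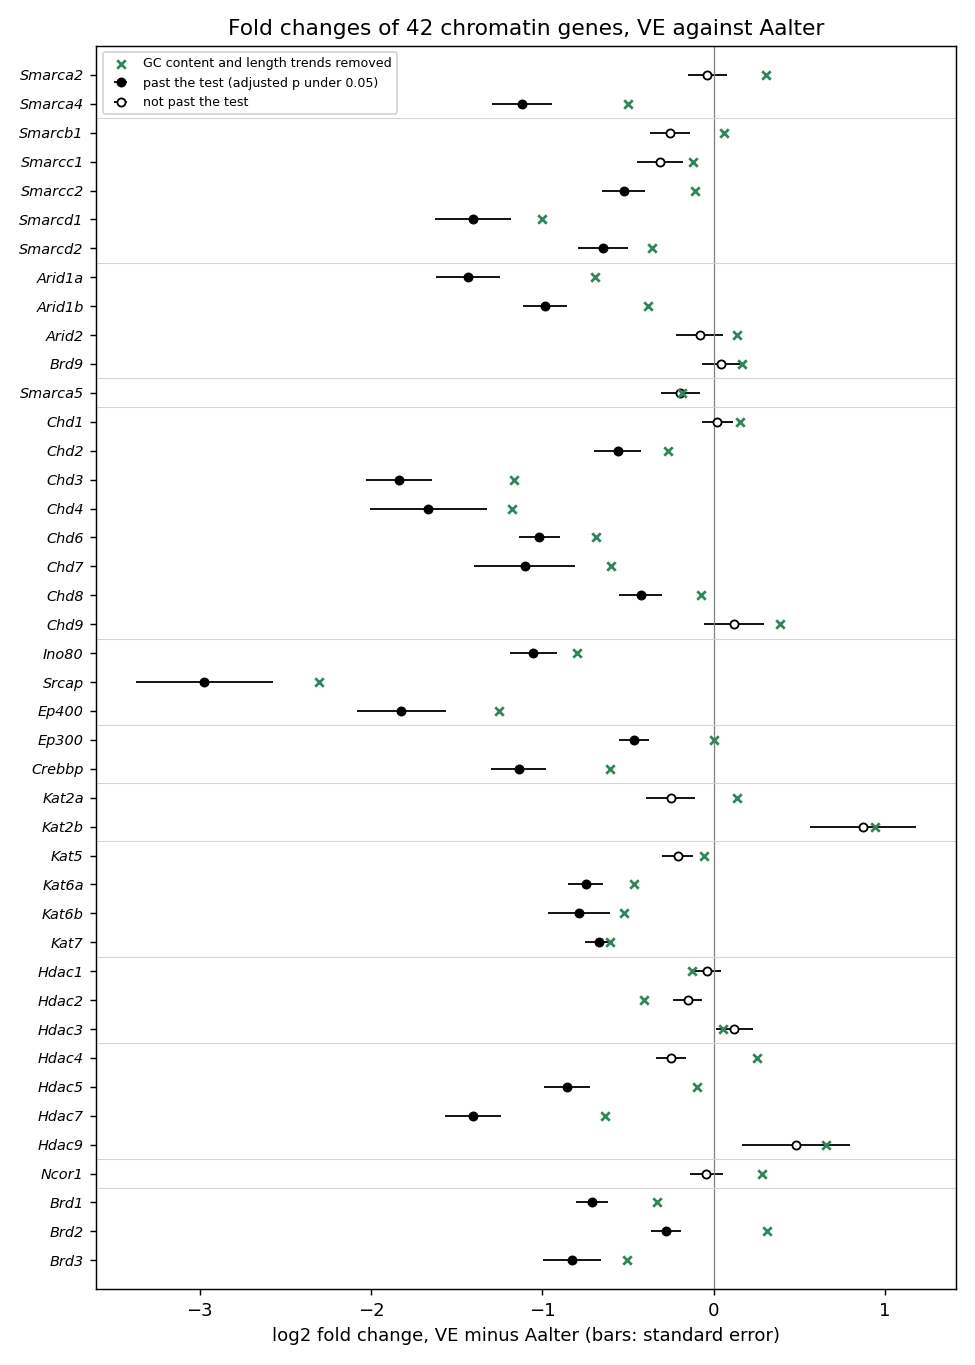
Log2 fold changes of the 42 genes, VE minus Aalter, with standard errors (filled circles passed edgeR's test, open circles did not) and the values with GC content and length trends removed (crosses). Srcap at -2.97 is the lowest and Kat2b at 0.87 the highest. Most crosses lie to the right of their circles, while Hdac1, Hdac2 and Hdac3 have crosses to the left.

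Among the acetyltransferases, Crebbp and Ep300 encode CBP and its paralogue, coactivators that acetylate histone H3 at enhancers. Crebbp stood at 87.6, 133 and 124 CPM for Aalter against 52.9, 54.2 and 49.5 CPM for VE, and Ep300 at 113, 121 and 109.8 CPM for Aalter against 88.05, 80.4 and 80.7 CPM for VE. The groups were apart in both, with Aalter-1 lowest for Crebbp and in the middle for Ep300. Crebbp fell by 1.14 ± 0.16 (adjusted p = 0.00647) and Ep300 by 0.46 ± 0.09 (adjusted p = 0.012). In the fit that removes trends on GC content and length, Ep300 was at 0.00 (adjusted p = 0.979) and Crebbp at -0.61 (adjusted p = 0.0242). Ncoa3, a steroid receptor coactivator that recruits both, fell by 0.80 ± 0.08 (adjusted p = 0.00393).

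Kat2a and Kat2b encode GCN5 and PCAF, alternative acetyltransferases of the SAGA and ATAC complexes. Kat2b stood at 40.6, 18.2 and 18.5 CPM for Aalter against 49.7, 47.5 and 44.9 CPM for VE. Every VE library was above every Aalter library, and Aalter-1 lay close to VE. The log2 fold change of 0.87 ± 0.31 did not pass (adjusted p = 0.0684), but did without Aalter-1 (1.37, adjusted p = 1.33e-07), with DESeq2 (adjusted p = 0.0137) and with limma-voom (adjusted p = 0.0412), while the highest value over the alternatives was 0.196. Kat2a was low, at 8.71 ± 0.417 and 7.32 ± 0.871 CPM, and did not pass (-0.25 ± 0.14, adjusted p = 0.208).

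The MYST enzymes Kat6a (MOZ), Kat6b and Kat7 (HBO1) fell. Kat7 stood at 56.1, 60.97 and 56.8 CPM for Aalter against 36.08, 36.00 and 37.3 CPM for VE, so Aalter-1 sat with its group, and it fell by 0.67 ± 0.08 (adjusted p = 0.00526). Kat6a fell by 0.75 ± 0.10 (adjusted p = 0.00618) and Kat6b by 0.79 ± 0.18 (adjusted p = 0.0197). The call of Kat6b held in 1 of the 6 fits without a library, that without Aalter-1. Kat6a was at 130.3, 158 and 155 CPM for Aalter against 89.6, 90.1 and 84.99 CPM for VE. Kat6b was at 29.6, 40.7 and 32.2 CPM for Aalter against 22.98, 20.8 and 15.6 CPM for VE. The groups were apart in both, and Kat6b varied more within each. Brd1, a bromodomain scaffold of the Kat7 and Kat6a complexes, fell by 0.71 ± 0.10 (adjusted p = 0.00609) and passed in each of the 6 fits without a library. Brd1 was at 72.9, 81.1 and 80.7 CPM for Aalter against 49.2, 50.6 and 43.7 CPM for VE, with Aalter-1 near its group. Of 12 genes of these enzymes and their scaffolds 9 fell, beside 19.5% of all tested genes, and 3 did not pass. Their median was -0.69, and the alternative scaffold gene Jade2 fell by 0.94 ± 0.09 (adjusted p = 0.00378). Kat5, the enzyme of the TIP60 complex, did not pass (-0.21 ± 0.09, adjusted p = 0.11) but did without Aalter-1 (-0.26, adjusted p = 0.0125), and 12.1% of its exonic bases are shared with Rnaseh2c on the opposite strand.

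Class I deacetylases, the nuclear catalytic subunits of most co-repressor complexes, did not pass. Hdac1 stood at 87.8, 96.5 and 95.08 CPM for Aalter against 86.7, 92.2 and 93.06 CPM for VE, with overlapping groups (-0.04 ± 0.08, adjusted p = 0.746). Hdac2 was at -0.15 ± 0.09 (adjusted p = 0.201) and Hdac3 at 0.12 ± 0.11 (adjusted p = 0.415). Hdac2, with the smallest p of this class, was at 39.3, 39.1 and 38.7 CPM for Aalter against 36.9, 33.1 and 35.4 CPM for VE, and its groups did not overlap. Hdac2 passed once GC content and length trends were removed (-0.41, adjusted p = 0.0284). Ncor1, the co-repressor that activates Hdac3, was at 205, 188 and 172 CPM for Aalter against 186, 181 and 181 CPM for VE (-0.04 ± 0.10, adjusted p = 0.759). Tbl1xr1, a subunit of the co-repressor complex around Ncor1, rose by 0.56 ± 0.14 (adjusted p = 0.026), again past without Aalter-1 and in no other leave-one-out fit.

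The class IIa deacetylases Hdac4, Hdac5, Hdac7 and Hdac9 shuttle between nucleus and cytoplasm. Hdac7, known for its role in thymocytes and endothelium, stood at 17.6, 25.6 and 22.5 CPM for Aalter against 8.88, 7.79 and 8.07 CPM for VE. The groups did not overlap, and Hdac7 fell by 1.40 ± 0.16 (adjusted p = 0.00453) and passed in all 16 alternative fits. Hdac5 fell from 40.2 ± 6.38 to 22.2 ± 1.21 CPM (-0.86 ± 0.14, adjusted p = 0.00855), and its value was -0.09 in the fit corrected for GC content and length (adjusted p = 0.501). By library, Hdac5 was at 33.2, 45.6 and 41.9 CPM for Aalter against 21.98, 23.5 and 21.1 CPM for VE, and its groups were apart. Hdac4 had groups that did not overlap yet did not pass (-0.25 ± 0.09, adjusted p = 0.0662). It passed in 3 of 16 alternative fits: without Aalter-1 (-0.29, adjusted p = 0.00849), without Aalter-1 and VE-1, and with library totals. Gm26720 on the opposite strand shares 22.4% of the exonic bases of Hdac4. Hdac9 was near the lower end of the set, at 1.58 to 4.31 CPM, and was at 0.48 ± 0.31 (adjusted p = 0.264). Outside this class, the cytoplasmic tubulin deacetylase gene Hdac6 fell by 0.68 ± 0.18 (adjusted p = 0.0286), and Sirt1, an NAD-dependent deacetylase gene, was at 0.17 ± 0.08 (adjusted p = 0.158).

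The BET readers Brd2 and Brd3 bind acetylated histone H4 and recruit the transcription machinery. Brd3 fell from 14.9 ± 3.02 to 8.39 ± 0.365 CPM (-0.83 ± 0.17, adjusted p = 0.015). By library it was at 17.9, 14.8 and 11.9 CPM for Aalter against 8.304, 8.79 and 8.07 CPM for VE, with its highest value in Aalter-1. Brd2 stood at 309, 336 and 318 CPM for Aalter against 256, 264 and 275 CPM for VE, groups apart but close, and its fall of 0.28 ± 0.09 was at the threshold (adjusted p = 0.0497). Brd2 went to 0.31 in the fit corrected for GC content and length (adjusted p = 0.0602), and it shares some exonic bases with H2-DMa.

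Gene pairs with alternative or related roles were compared as ratios of CPM per kilobase of the longest annotated transcript, in 8 pairs. The ratio of Smarca4 to Smarca2 was 1.18, 1.93 and 1.999 in Aalter and 0.696, 0.73 and 1.0005 in VE. That of Crebbp to Ep300 averaged 0.887 ± 0.174 in Aalter and 0.557 ± 0.0351 in VE (SD over 3 libraries), and that of Arid1a to Arid1b 2.90 ± 0.454 and 2.15 ± 0.0969. The ratio of Kat2b to Kat2a went the other way, from 2.06 ± 0.945 to 4.57 ± 0.316. These 4 ratios did not overlap between the groups, with a two-sided exact permutation p of 0.1 each, the smallest that 3 against 3 libraries allow, and 0.2 after adjustment over the 8 pairs. The ratios of Kat6b to Kat6a, Hdac1 to Hdac2, Chd3 to Chd4 and Smarcc2 to Smarcc1 overlapped (exact permutation p from 0.2 to 0.9).

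**Figure D3:**
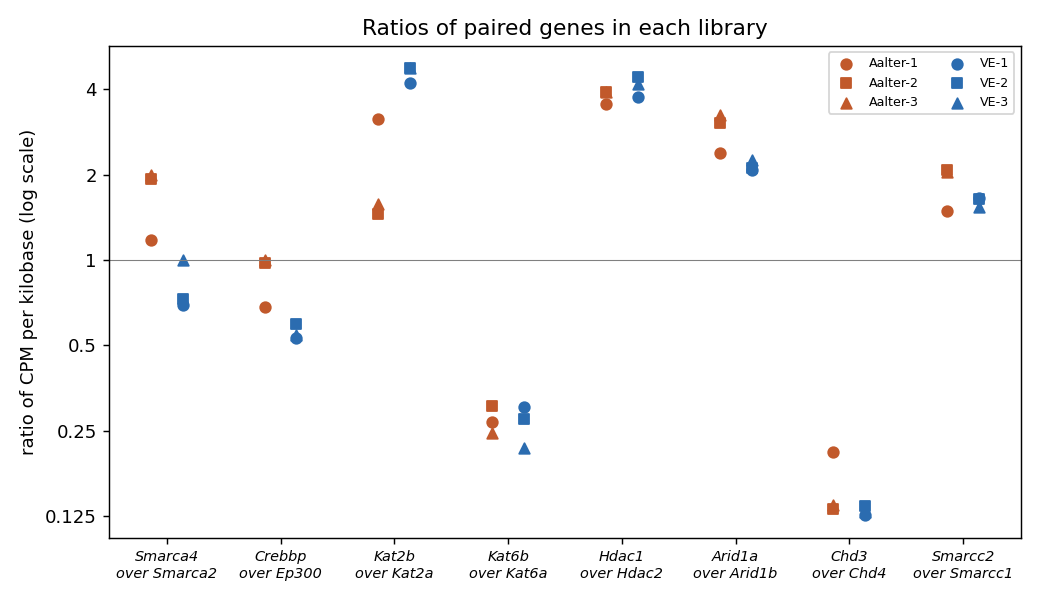
Ratio of CPM per kilobase between paired genes in each library (vertical log scale; orange Aalter, blue VE, marker shape for the library number). Smarca4 over Smarca2 lies between 1.18 and 1.999 in Aalter and between 0.696 and 1.0005 in VE, while Kat6b over Kat6a covers nearly the same range in both groups.

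Per kilobase of transcript, Chd4 was the highest of the 42 genes in Aalter, at 87.1 CPM per kb, followed by Brd2 at 68.9, Hdac1 at 45.7 and Smarca5 at 43.3. In VE the order was Brd2 at 56.9, Hdac1 at 44.5, Smarca5 at 37.9, Chd1 at 27.7 and Chd4 at 27.4 CPM per kb, the last pair being close. Srcap went from rank 13 at 15.6 CPM per kb in Aalter to rank 38 at 1.98 in VE, and Ep400 from rank 15 at 14.01 to rank 29 at 3.95. Kat2b went from rank 32 at 5.54 to rank 13 at 10.2 CPM per kb. Hdac9 was the lowest in both groups, at 0.338 and 0.476 CPM per kb.

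**Figure D4:**
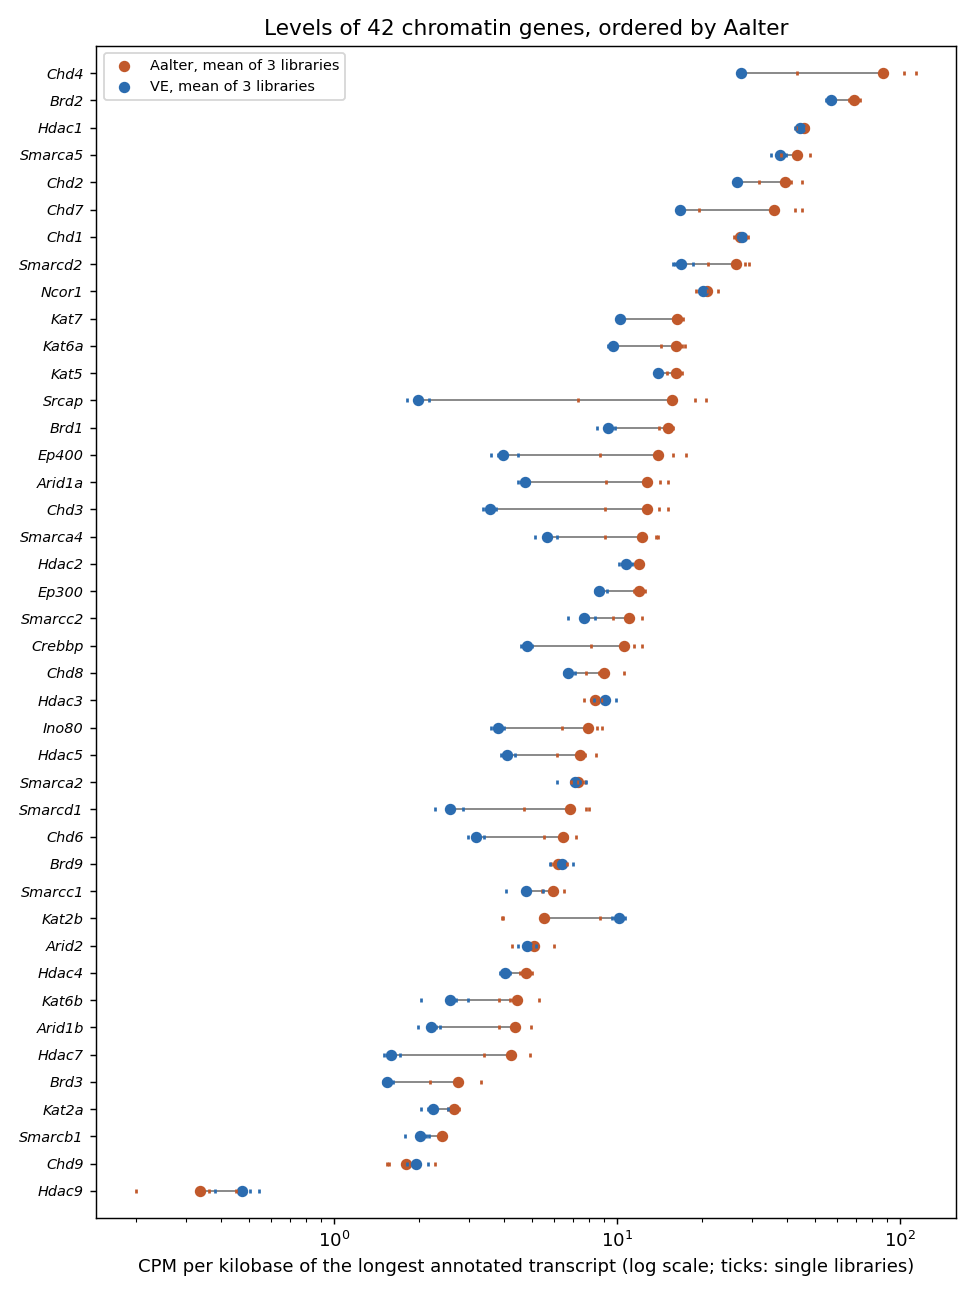
CPM per kilobase of the longest annotated transcript (log scale) for the 42 genes, ordered by the Aalter mean; circles are means of 3 libraries and ticks single libraries. Chd4 drops from 87.1 to 27.4 and Srcap from 15.6 to 1.98 CPM per kb, while Hdac1 and Ncor1 keep nearly the same place.

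The chromatin genes have long transcripts, with a median longest transcript of 6536.5 bases and a GC content of 51.1%, beside 3323 bases and 49.3% for all tested genes. Over all tested genes the log2 fold change went down with length and with GC content (Spearman's rho across genes -0.24 and -0.29, n = 12520). Within the 42 genes rho was -0.28 with length and -0.60 with GC content, and the genes share the same 6 libraries. Among genes with a longest transcript of 8000 bases or more, 38.8% of all tested genes fell, and 11 of the 15 chromatin genes did. Among genes with a GC content of 54% or more, 31.5% of all tested genes fell, and 10 of the 12 chromatin genes did.

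After removal of the trends that each library showed on GC content and transcript length, 16 of the 42 genes fell and 1 rose, beside 12.8% and 13.5% of all tested genes, and the median log2 fold change was -0.22. Of the 25 calls 15 remained: Srcap (-2.30), Ep400 (-1.25), Chd4 (-1.17), Chd3 (-1.17), Smarcd1 (-1.004), Ino80 (-0.80), Arid1a (-0.69), Chd6 (-0.68), Hdac7 (-0.64), Crebbp (-0.61), Kat7 (-0.61), Smarca4 (-0.50), Kat6a (-0.47), Arid1b (-0.38) and Brd1 (-0.33). The calls of Smarcc2, Smarcd2, Chd2, Chd7, Chd8, Ep300, Kat6b, Hdac5, Brd2 and Brd3 were lost. The gene that rose was Kat2b (0.94, adjusted p = 0.043). The part of length and GC content in these falls was not tested beyond this fit.

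**Figure D5:**
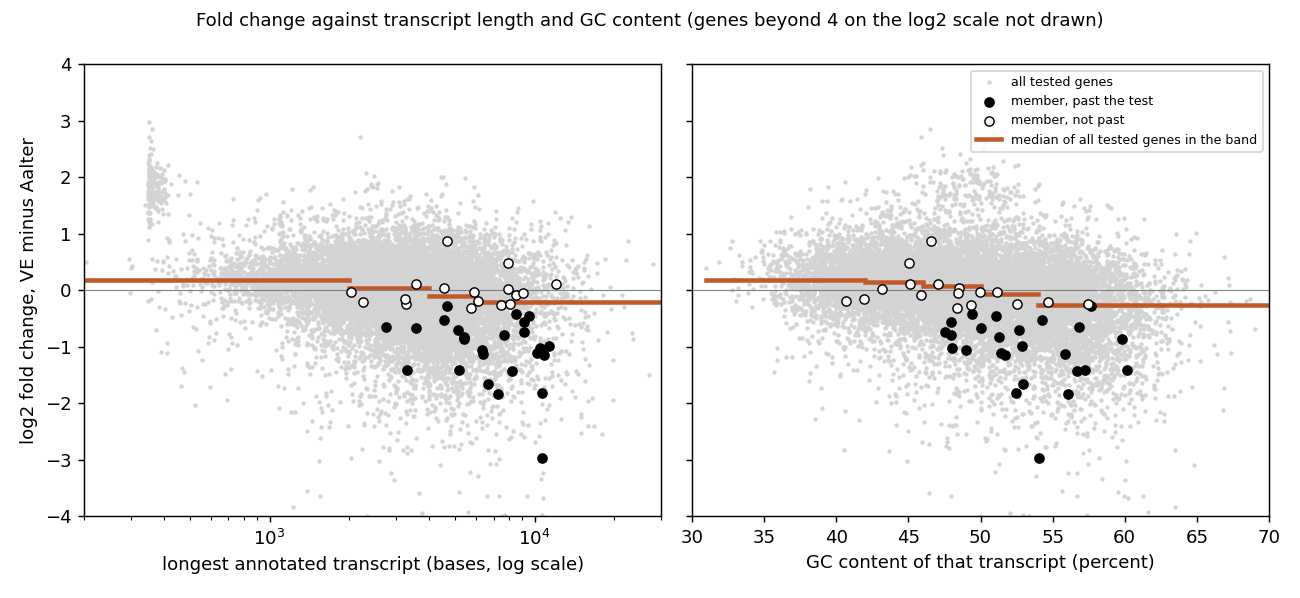
Log2 fold change, VE minus Aalter, against the length of the longest transcript (left, log scale) and its GC content (right) for all tested genes (grey) and the 42 chromatin genes (filled, past the test; open, not past), with the median of all tested genes in each band. The band medians are 0.18 in the shortest and -0.20 in the longest band, and 0.18 in the lowest and -0.25 in the highest GC band, and most filled points lie below them.

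Markers of leukocyte types and of airway epithelium moved with the groups as well. The counts of calls below stand beside 19.5% of all tested genes that fell and 12.8% that rose. Of 11 T cell markers 8 fell and 1 rose, and their summed level was 1028 to 1300.3 CPM for Aalter against 745 to 822 CPM in VE. Of 9 B cell markers 7 fell, with sums of 275 to 339.8 CPM for Aalter against 196 to 226 CPM in VE. Of 6 natural killer cell markers 4 fell and 1 rose, with overlapping sums of 593 to 673 and 586 to 869 CPM. Gzma, at 388 to 767 CPM, made up most of these sums and did not pass (0.55, edgeR adjusted p = 0.0502). Those that fell were Eomes (-2.61), Prf1 (-2.40), Ncr1 (-1.86) and Klrb1c (-0.44), and Klrd1 rose (0.49). Neutrophil markers gave 8 of 10 higher, with sums of 25724 to 30015 CPM for Aalter against 36435 to 44454 CPM in VE, and monocyte and macrophage markers 6 of 8 higher and 1 lower, with sums of 2028 to 3246 and 4340 to 4583 CPM. Of the 3 pan-leukocyte markers Laptm5 fell (-0.74, adjusted p = 0.0185) and Ptprc and Coro1a did not pass.

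Of the 10 epithelial markers 2 fell, Scgb1a1 (-1.44, adjusted p = 0.0096) and Foxj1, the ciliated cell regulator (-2.14, adjusted p = 0.00743), and 2 rose, Ager (1.01, adjusted p = 0.0484) and Hopx (0.52, adjusted p = 0.0134). The epithelial sum was 281, 451 and 432 CPM for Aalter against 221, 231 and 224 CPM for VE, so Aalter-1 lay between. Of 7 markers of endothelium and stroma 1 fell and 1 rose, and over all tested genes 19.5% fell and 12.8% rose. None of these markers was at 0 in every library. The part of cell type shares in the falls of the chromatin genes was not tested.

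Across the 130 partner genes, 122 were tested, of which 36 fell and 5 rose, beside 19.5% and 12.8% of all tested genes. The median log2 fold change of the partner genes was -0.09. Besides Znhit1, Uchl5, Mbd2 and Tbl1xr1, the gene that rose was Sap30, which encodes a subunit of the SIN3 co-repressor (0.44 ± 0.12, adjusted p = 0.0318). Without Aalter-1, 124 were tested, of which 50 fell and 26 rose, beside 28.5% and 27.8% of all tested genes.

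How many of the 42 genes fell depended on the libraries and the model, and so did the share over all genes. Without VE-2, 5 fell beside 1.36% of all tested genes and 0 rose beside 0.0154%. Without VE-1 and VE-3, 12 and 16 fell beside 3.56% and 6.22%, and 0 rose beside 0.204% and 0.803%. Without Aalter-2 and Aalter-3, 15 and 16 fell beside 6.29% and 4.85%, and 0 rose beside 0.853% and 0.427%. Arid1b, Chd3, Chd6, Hdac7 and Brd1 passed in each of the 6 fits without a library. Among the genes called in the main fit, Smarcc2, Smarcd2, Chd2, Chd4, Chd7, Chd8, Kat6b and Brd2 passed only in that without Aalter-1. Ep300 and Brd3 passed in 2 of the 6.

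Scaling, filters and the block gave other counts. With RLE scaling 24 fell and 0 rose, beside 19.2% and 13.1% of all tested genes, and with scaling to the library totals 30 fell and 0 rose, beside 25.7% and 3.96%. Without the filter on low counts 23 fell and 0 rose, beside 12.4% and 7.44%, and with a mean of at least 5 CPM 25 fell and 0 rose, beside 23.6% and 17%. With the replicate number as a block 24 fell and 1 rose, beside 16.5% and 9.51%, and with the block and the GC content and length correction together 12 fell and 1 rose, beside 10.3% and 9.82%. Without Aalter-1 and VE-1 28 fell and 2 rose, beside 28.4% and 27.2%.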

How the data were processed

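Libraries were made from total RNA with the SMARTER mRNA-Seq kit, per the labels. The deposited values are estimated counts for each gene, not scaled, per the file headers, and 10.5% to 12.2% of them in a library are not whole. The build is mm10, per the submitters' processing notes; the sources used here do not give the aligner, counter or strand setting. A column was given to a sample where its group name (or the start of it) and number matched the title.

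Rounded counts of the whole table were fitted with edgeR 4.0.16 in R 4.3.3 (TMM, filterByExpr, robust quasi-likelihood test, group as the only term, Benjamini-Hochberg adjustment over 12551 genes, threshold 0.05). The fit was also run on simulated counts with the same dispersion for all genes and no library set apart. That run does not give error rates for these libraries. Fold changes are VE over Aalter, with SE taken as their log2 size over the root of F. CPM are relative to TMM-scaled totals; 3 counts equal 0.179 to 0.251 CPM, for counting error only. Lengths, GC content and coordinates come from GENCODE vM21 (mm10). Alternatives used RLE or library totals, DESeq2 1.42.0, limma-voom (limma 3.58.1), other filters, a replicate block, fewer libraries, and offsets that remove trends on GC content and length (splines, 5 degrees of freedom).

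All 42 genes are accounted for. Of 130 partner genes, those named are up to 6 per direction with the smallest p among calls with a mean of at least 1 CPM, plus Pbrm1, Sirt1 and Hdac6; other partner genes that the rule names are not reported here. The genes, partner list, pairs and complexes were chosen with earlier results of these data known.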

Additional observations from a re-analysis of the deposited data

How the results depend on the processing

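Counts of the 42 genes that fell stayed within 1.5 times of 25 under RLE and library-total scaling, DESeq2, limma-voom, both filters, the replicate block and the removal of Aalter-1 with VE-1. They were 16 with GC content and length trends removed and 12 with the replicate block added to that. The 42 genes that rose were 1 with DESeq2, limma-voom, the replicate block, the GC content and length correction and that correction with the block, and 2 without Aalter-1 and VE-1. Their median log2 fold change was -0.68 with library totals, -0.22 with the GC content and length correction and -0.21 with the block as well. Leaving out 1 library gave 5 to 28 lower, 0 to 2 higher and a median of -0.64 to -0.45. All tested genes numbered 2 to 3561 higher and 177 to 3652 lower in those fits; 497 were higher with library totals, a scaling that moved the median of all genes from 0.02 to -0.12, and lower calls from 60.3% to 86.7% of calls (48.7% with the GC content and length correction). Without Aalter-1 and VE-1, 3403 genes were higher and 3559 lower, and 1604 were lower with the correction and 1291 with the block as well. Of the partner genes 0 were higher with library totals, 2 with the block, 11 with the correction, 8 with correction and block and 21 without Aalter-1 and VE-1. Lower partner genes numbered 24 with the correction, 21 with correction and block, 51 with library totals and 50 without Aalter-1 and VE-1, and leaving out 1 library gave 5 to 50 lower and 0 to 26 higher. The cause of these shifts was not tested.

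Signs turned for some genes, among them Ep300 and Brd2, which had passed the test. With the GC content and length correction (and with the block added) Smarca2 was at 0.31 (0.30), Smarcb1 0.0594 (0.0555), Arid2 0.13 (0.14), Ep300 0.0036 (0.0018), Kat2a 0.13 (0.13), Hdac4 0.25 (0.25), Ncor1 0.28 (0.28) and Brd2 0.31 (0.32). With library totals Brd9 was at -0.10, Chd1 -0.12, Chd9 -0.0257 and Hdac3 -0.0178. Over the fits without 1 library Smarca2 ran from -0.125 to 0.0316, Arid2 from -0.198 to 0.0559, Ncor1 from -0.107 to 0.0261, Brd9 from -0.0431 to 0.0992 and Chd1 from -0.0171 to 0.0718. Without Aalter-1 and VE-1 Arid2 was at 0.0012 and Ncor1 at 0.0188.

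Libraries of the same number correlated at 0.299, 0.272 and 0.053 in their deviations from the group means. Aalter and VE libraries of different numbers correlated at -0.289 to 0.171. These values do not decide whether the numbers pair the samples. The main fit had no block, and the fit with a replicate block is given beside it. With the replicate block the call of Brd2 was lost and that of Kat2b gained (adjusted p = 0.034), and 1194 genes were higher and 2074 lower overall. At this depth the standard errors of the 42 log2 fold changes ran from 0.0821 to 0.402, with a median of 0.135.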
